A study of Mus musculus with 9 samples.

Results

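The unfolded protein response and the integrated stress response were examined through 40 genes, picked by symbol: their sensors and kinases, the transcription factors they switch on, and the targets of those factors. The table of 16698 genes held 39 of the 40. It had no row for Fgf21, of which only the promoter was analysed here. Of the 39, 37 passed the filter on low values (a log2 value above 0 in 3 or more libraries), and 36 lay above 0 in every library. Phgdh and Slc7a11 stayed below the filter. RNA came from the left ventricle of outbred ICR/CD1 mice aged 14 days, in 9 libraries. Transverse aortic constriction (TAC), a banding of the aortic arch that raises the pressure the left ventricle pumps against, was done at postnatal day 1 in 3 libraries (day-1 TAC) and at postnatal day 7 in 3 (day-7 TAC). The other 3 were sham controls, and the labels give no day for the sham surgery. Both TAC groups were collected at the same age, so age at surgery and time under load differ together between them and cannot be told apart.

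When unfolded proteins collect in the endoplasmic reticulum (ER), the membrane sensors IRE1 (Ern1), ATF6 and PERK (Eif2ak3) start the unfolded protein response. IRE1 splices Xbp1 messenger RNA, and ATF6 and XBP1 then raise the ER chaperones and the machinery that disposes of misfolded proteins. PERK and the kinases GCN2 (Eif2ak4) and PKR (Eif2ak2) phosphorylate the translation factor eIF2alpha, which slows protein synthesis in general but favours translation of ATF4, the factor that drives amino acid synthesis and uptake genes. In the heart both responses are known from pressure overload and ischaemia. Splicing of Xbp1, phosphorylation of eIF2alpha and translation of ATF4 leave no direct trace in messenger RNA levels per gene, so those steps were not measured.

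DNA elements known from genes of these responses are shown first, since they tell which members have the letters that ATF6, XBP1 or ATF4 are known to bind close to their start. The members were picked as genes of these responses. The shares below therefore do not test whether the elements are common among such genes. RefSeq promoters on GRCm38.p6, from 250 bases before to 50 bases after the start, were matched for 36 members, and Atf6, Ppp1r15b, Slc7a5 and Manf had no entry. The ER stress element (ERSE), searched as CCAAT and CCACG with 9 bases between them, was found in 5 of 36 members (13.9%) and in 19 of the 12211 genes of the table with a promoter (0.156%). Its 5 holders, Calr, Canx, Pdia6, Creld2 and Syvn1, all encode ER folding or ER degradation proteins. In the lines below the capitals mark the element, each line reads 5′ to 3′ along the gene, and a Calr or Creld2 element reads on the opposite strand.

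Calr: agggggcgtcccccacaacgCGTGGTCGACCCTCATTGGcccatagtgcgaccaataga
Canx: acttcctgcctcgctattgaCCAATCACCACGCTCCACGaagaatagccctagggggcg
Pdia6: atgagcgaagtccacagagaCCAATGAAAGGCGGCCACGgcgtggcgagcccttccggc
Creld2: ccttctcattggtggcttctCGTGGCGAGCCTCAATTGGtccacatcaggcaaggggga
Syvn1: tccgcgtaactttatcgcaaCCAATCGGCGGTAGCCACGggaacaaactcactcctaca

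These stretches lie at chr8:84847055-84847113 (Calr, minus strand), chr11:50325780-50325838 (Canx, minus), chr12:17266471-17266529 (Pdia6, plus), chr15:88819500-88819558 (Creld2, plus) and chr19:6046512-6046570 (Syvn1, plus). The composite element read by ATF4 with C/EBP partners, searched as TGATGNAA, was found in 7 of 36 members (19.4%) and in 340 of the 12211 genes (2.78%). The members were Trib3, Chac1, Fgf21, Vldlr, Asns, Slc7a11 and Herpud1. Herpud1 also held the variant ERSE-II, searched as ATTGG and CCACG 1 base apart, which 8 of the 12211 genes held (0.066%); that search was added after the data were seen. The XBP1 element TGACGTGG was in none of the 36 members and in 128 of the 12211 genes (1.05%). All searches covered both strands. Shown next are the 4 holders of the ATF4 element that passed the test in some comparison, with the ERSE-II of Herpud1 on its own line.

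Asns: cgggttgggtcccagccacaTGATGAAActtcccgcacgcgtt
Chac1: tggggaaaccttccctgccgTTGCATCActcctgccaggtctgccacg
Vldlr: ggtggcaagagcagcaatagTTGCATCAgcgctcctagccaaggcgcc
Herpud1: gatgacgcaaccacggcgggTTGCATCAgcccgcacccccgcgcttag
Herpud1 ERSE-II: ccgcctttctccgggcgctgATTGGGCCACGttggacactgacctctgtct

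They lie at chr6:7693210-7693252 (Asns, minus strand), chr2:119351029-119351076 (Chac1, plus), chr19:27216800-27216847 (Vldlr, plus), and chr8:94386297-94386344 and chr8:94386357-94386407 (Herpud1, plus). In Chac1, Vldlr and Herpud1 the ATF4 element reads on the opposite strand. A match of letters is a description of the sequence and does not show binding. As the values below show, the 4 ATF4-element genes did not move together: against sham, Asns rose in both TAC groups, Vldlr and Herpud1 fell in both, and Chac1 fell with day-7 TAC. Between the TAC groups Chac1 was higher with day-1 TAC. With the values as deposited and all 9 libraries, none of the 5 ERSE genes passed the test in any comparison.

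**Figure D1:**
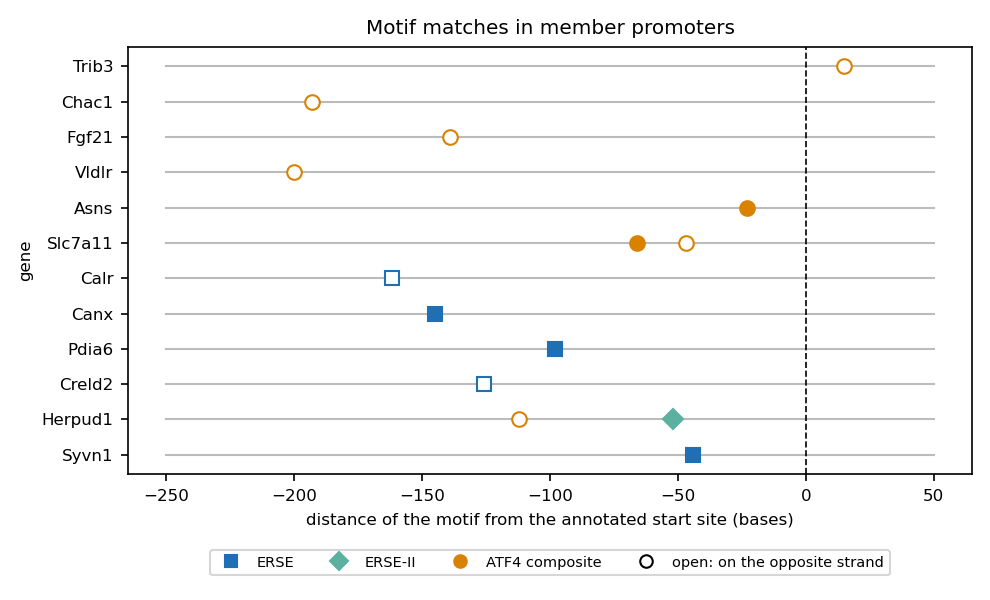
Motif matches in the RefSeq promoters of 12 members, one gene per line; the x axis is the distance in bases from the annotated start site (dashed), squares are ERSE, the diamond is ERSE-II, circles are the ATF4 composite element, and open symbols read on the opposite strand. ERSE matches sit at ER folding and degradation genes and the ATF4 element at target, amino acid and transport genes, with Herpud1 holding both ERSE-II and the ATF4 element. The Vldlr distance is from the start of promoter 2 of 2.

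Reads recovered from the deposited values ran from 18538900 to 26529531 per library. All 10 ventricular cardiomyocyte markers were present, each with at least 23846 reads in every library. Day-1 TAC replicate 3 stood apart with 10532 reads of Xist, against at most 40 elsewhere, and 18 of the Y-linked Ddx3y, against 3312 to 4706. By these sex-linked reads it had a female pattern and all other libraries a male pattern. Day-1 TAC was thus the only group with both patterns, and the part of sex in the results was not tested. The lowest mean correlation with the other libraries of a group, 0.979 across genes, was that of day-1 TAC replicate 1. Marker levels of other cell types are given as sums of values taken out of the log2. Beside the marker counts below, 14.3% of all genes tested were higher and 20.5% lower with day-1 TAC. With day-7 TAC these shares were 13.8% and 15.1%. The cardiomyocyte sum was 140821 to 145929 in sham, 120647 to 130270 with day-7 TAC and 102640 to 132732 with day-1 TAC. Cardiomyocyte markers were higher in 1 and lower in 3 of 10 with day-1 TAC, and higher in 1 and lower in 2 with day-7 TAC. The neutrophil sum (8 markers, 7 tested) was 2.13 to 4.39, 31.3 to 70.3 and 7.29 to 32.6, with 7 of 7 higher in day-7 TAC and 5 of 7 in day-1 TAC. The sham sums were low, and the untested marker, Camp, had as few as 1 read in a library. The fibroblast sum was 3327 to 4583, 4075 to 4539 and 4590.3 to 5778, and the macrophage sum 140.2 to 184, 114 to 149 and 157 to 224, with 3 of 8 macrophage markers higher in day-1 TAC and 2 lower in day-7 TAC. Endothelial markers were lower in 3 of 8 with day-1 TAC, and higher in 1 and lower in 1 with day-7 TAC (sums 2369.8 to 2709 in sham, 2316 to 2394 and 2077 to 2393 in day-7 and day-1 TAC). Smooth muscle and pericyte markers were higher in 1 and lower in 3 of 8 with day-1 TAC and higher in 1 with day-7 TAC (sums 2226 to 2406, 2172 to 2279 and 1551 to 1932). Atrial markers were higher in 1 of 5 tested in each TAC group, skeletal muscle markers lower in 1 of 3 in each and higher in 1 with day-7 TAC, and limma called none of 3 erythroid markers and none of 1 tested lymphocyte marker against sham (0 also at an unadjusted p under 0.05). In whole ventricle, fewer cells of a type and less RNA per cell cannot be told apart, and the part of these cell types in the results that follow was not tested.

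The members spanned a wide range of abundance. Levels can be compared between genes only per length, so the linear value was divided by the exon length in kilobases and put on the log2 scale. In sham, the ER chaperone calreticulin (Calr) was the most abundant per kilobase at 7.61 ± 0.26 (SD, n = 3). The oxidoreductase Pdia3 followed at 6.75 ± 0.15 and the membrane chaperone calnexin (Canx) at 6.73 ± 0.14, which do not differ beyond their spread. Vldlr, the very-low-density lipoprotein receptor, stood at 6.12 ± 0.16 and Atf4 at 5.78 ± 0.15. ER folding genes were 5 of the 10 highest. Per kilobase of coding length they were also 5 of the 10 highest, with Manf in place of Pdia4, but the order changed. Canx (8.13) and Vldlr (8.06) then stood above Pdia3 (7.80). The lowest were Mthfd2 at -0.84 ± 0.10, the serine synthesis enzyme Phgdh at -1.89 ± 0.26 and the cystine carrier Slc7a11 at -3.90 ± 0.14, with Slc7a11 at 7 to 23 reads per library.

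**Figure D2:**
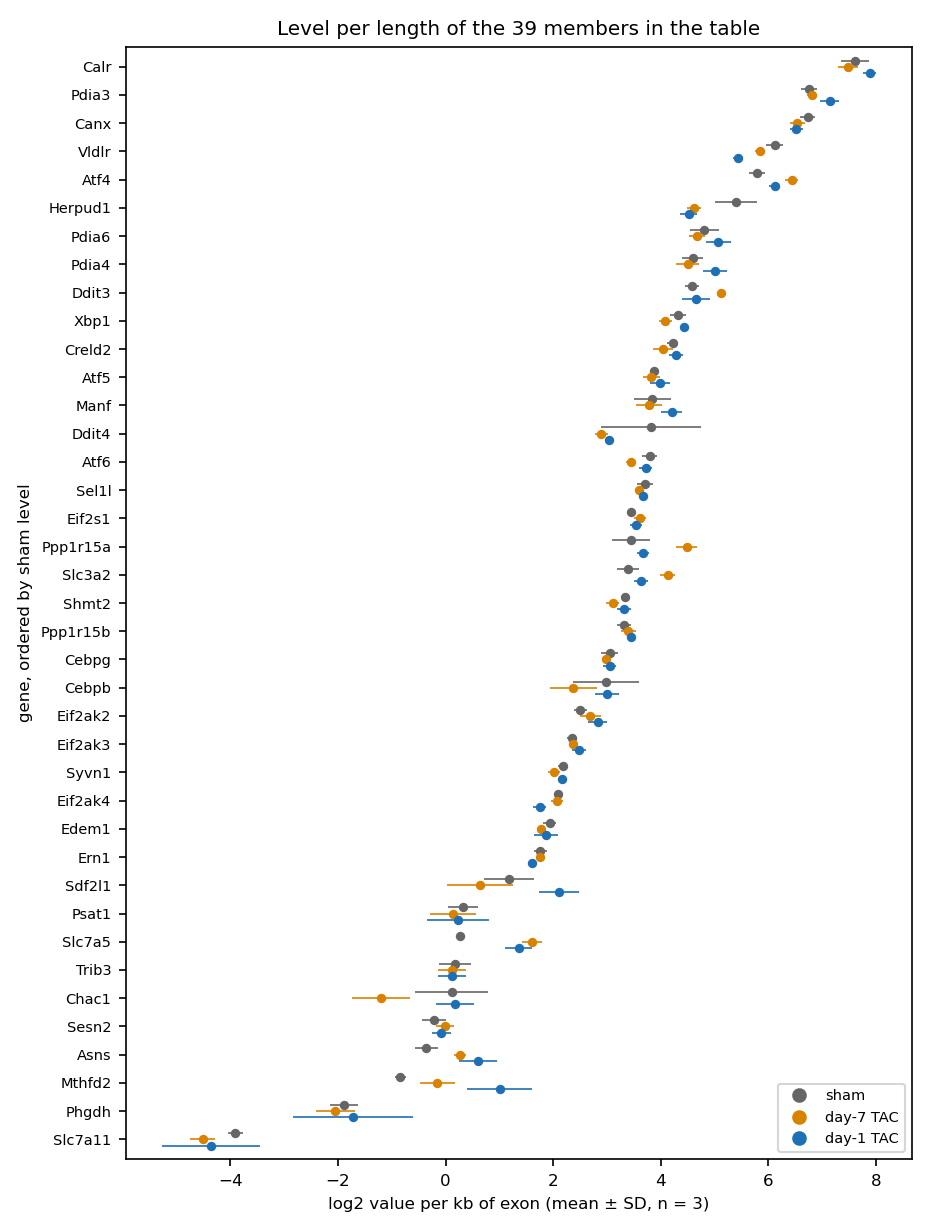
Level of the 39 members per kilobase of exon (log2, x axis), ordered by sham level; points are group means and bars the SD of 3 libraries, for sham (grey), day-7 TAC (orange) and day-1 TAC (blue). Calr, Pdia3 and Canx lie at the top, and Phgdh and Slc7a11 at the bottom, below the filter on low values.

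With day-1 TAC, 6 of the 37 tested members were higher than sham (Asns, Atf4, Mthfd2, Pdia3, Pdia4, Slc7a5) and 3 lower (Eif2ak4, Herpud1, Vldlr) by limma at an adjusted p under 0.05. These are 16.2% and 8.11% of the members, beside 14.3% and 20.5% of all 13712 genes tested. With day-7 TAC, 6 were higher (Asns, Atf4, Ddit3, Ppp1r15a, Slc3a2, Slc7a5) and 4 lower (Atf6, Chac1, Herpud1, Vldlr), 16.2% and 10.8% beside 13.8% and 15.1%. The shares of rises were near the background in both comparisons. The median log2 fold change of the members was 0.09 with day-1 TAC (all genes -0.04) and -0.08 with day-7 TAC (all genes -0.01). Both comparisons use the same 3 sham libraries. Scaling by total reads moved the median of all genes by 0.10 for day-1 TAC against sham, and the share of higher among all called genes went from 41.1% to 60.1%. The same share went from 47.7% to 59.7% for day-7 TAC. Without day-7 TAC replicate 1, 6 members in place of 10 were called with day-7 TAC. Without day-1 TAC replicate 3, 9 and 9 members were called in these comparisons.

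**Figure D3:**
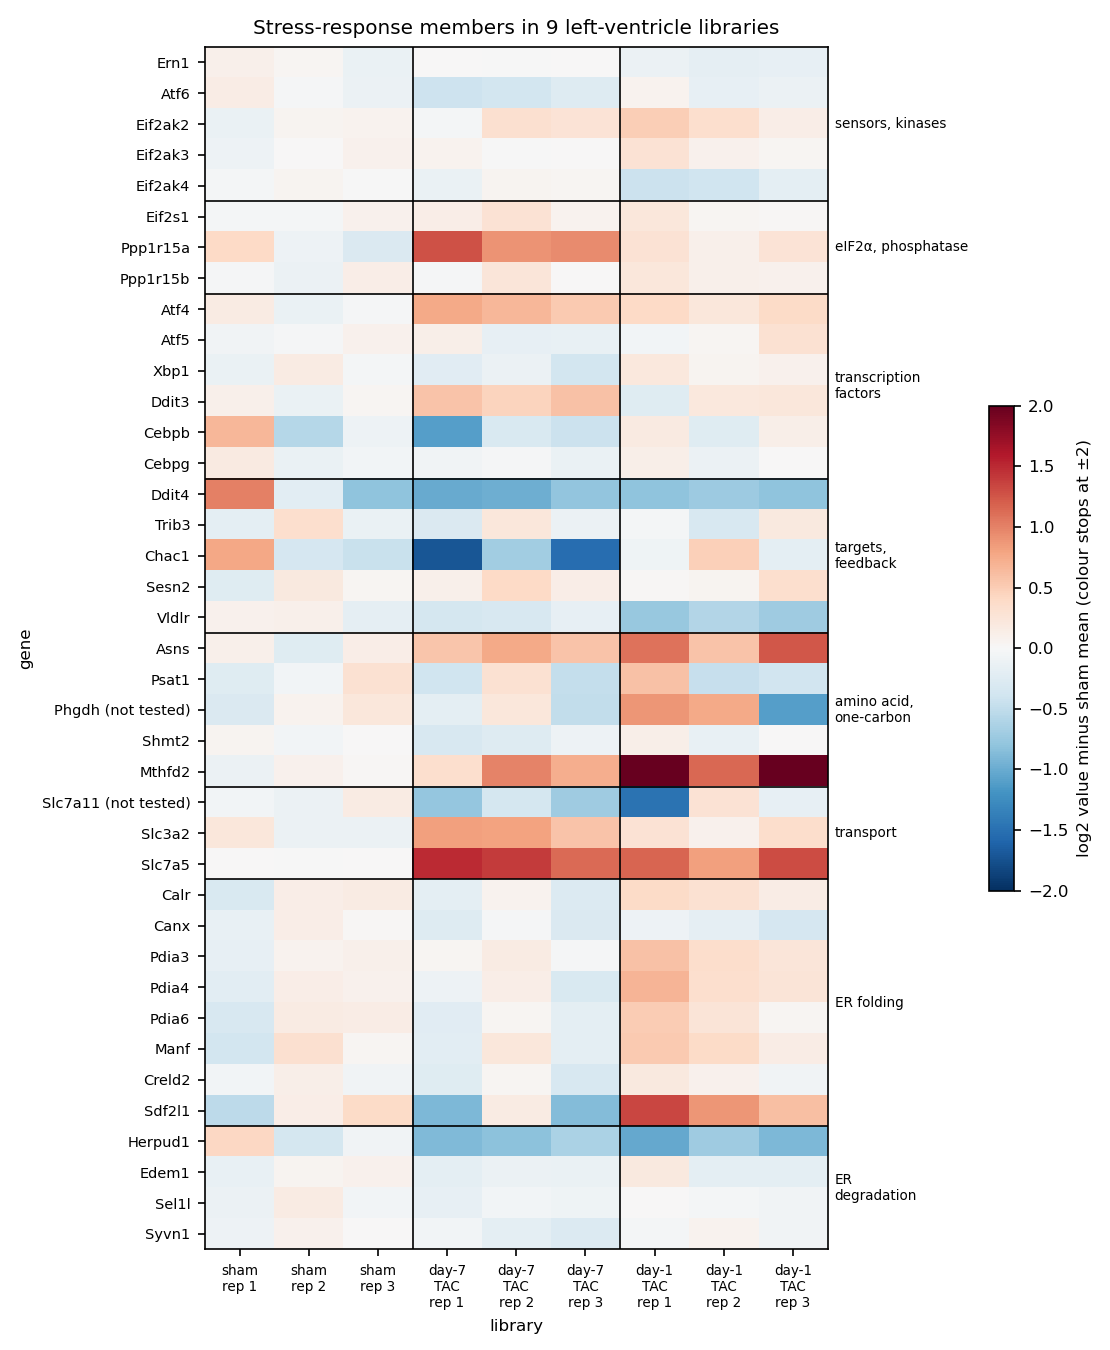
Deposited log2 value of each member in each of 9 libraries minus its sham mean, with genes (y axis) grouped by role and libraries (x axis) by group; red is above and blue below the sham mean, and colour stops at 2 on either side. Slc7a5, Asns and Mthfd2 are red in all 6 TAC libraries, Ppp1r15a most in day-7 TAC, Herpud1 is blue in all 6, and most ER folding genes are red in day-1 TAC replicate 1.

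Among the sensors and kinases, 1 of 5 fell in each TAC group and none rose. The share of falls, 20%, stands beside 20.5% of all genes with day-1 TAC and 15.1% with day-7 TAC. Atf6, the ER membrane sensor whose cleaved part is a transcription factor, was 7.14, 6.98 and 6.87 in sham replicates 1 to 3, 6.58, 6.63 and 6.74 with day-7 TAC, then 7.06, 6.84 and 6.88 after day-1 TAC. The day-7 TAC libraries were all below the others. Atf6 fell with day-7 TAC by 0.35 on the log2 scale (SE 0.09, adjusted p = 0.0154), a call lost without day-7 TAC replicate 1 or replicate 2 (adjusted p up to 0.0551), and differed by -0.07 with day-1 TAC (adjusted p = 0.564). The amino acid sensor kinase GCN2 (Eif2ak4) was 4.94, 5.04 and 4.97 in sham, 4.85, 5.04 and 5.02 with day-7 TAC, then 4.56, 4.59 and 4.79 after day-1 TAC, where every library was below the rest. It fell with day-1 TAC by 0.34 (SE 0.09, adjusted p = 0.0152). The call did not hold when scaled by total reads or by upper quartile and without sham replicate 2 (adjusted p up to 0.068). The other kinases did not pass the test: PKR (Eif2ak2) differed by 0.32 with day-1 TAC (adjusted p = 0.0641) and 0.19 with day-7 TAC, and PERK (Eif2ak3) by 0.14 and 0.03. Ern1 lay between 4.61 and 4.89 in all 9 libraries.

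Ppp1r15a, which encodes GADD34, the stress-induced subunit that directs a phosphatase to eIF2alpha and so ends the stress signal, had the smallest p of all members between the TAC groups. It lies on chromosome 7 from 45522916 to 45526268 (GRCm38), where Tulp2 overlaps it. It was 5.40, 4.89 and 4.71 in sham, 6.27, 5.90 and 5.94 with day-7 TAC, then 5.30, 5.11 and 5.28 after day-1 TAC. All day-7 TAC libraries were above the other 6, and sham replicate 1 was above the day-1 TAC libraries. Ppp1r15a was 2.05-fold higher with day-7 TAC than in sham (log2 fold change 1.04, SE 0.16, adjusted p = 0.0015) and stood at 0.23 (SE 0.16, adjusted p = 0.303) with day-1 TAC. The constitutive partner subunit Ppp1r15b differed by 0.08 and 0.14, and Eif2s1, eIF2alpha itself, by 0.16 and 0.10 (day-7 and day-1 TAC), and neither passed the test. The neutrophil marker sum was also highest with day-7 TAC, and its part in the level of Ppp1r15a was not tested.

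Of the transcription factors, Atf4 was higher in both TAC groups. Atf4 lies on chromosome 15 from 80255184 to 80257541. Its values were 7.18, 6.89 and 7.00 in sham, 7.78, 7.69 and 7.55 with day-7 TAC, then 7.41, 7.24 and 7.41 after day-1 TAC. The 3 groups did not overlap, with day-7 TAC on top and sham at the bottom. Atf4 rose 1.57-fold with day-7 TAC (log2 fold change 0.65, SE 0.09, adjusted p = 0.000987) and 1.26-fold with day-1 TAC (0.33, SE 0.09, adjusted p = 0.0195). The day-1 call was lost without sham replicate 2 or without day-1 TAC replicate 1 or 3 (adjusted p up to 0.0797), and the day-7 call held in 11 other settings and in 9 fits that each left out a library (below, every other fit).

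Ddit3 (CHOP), a factor linked to cell death under lasting ER stress, was 5.46, 5.22 and 5.39 in sham, 5.93, 5.81 and 5.94 with day-7 TAC, then 5.12, 5.57 and 5.59 after day-1 TAC. The day-7 TAC libraries lay above all others, and day-1 TAC replicate 1 was the lowest of the 9. Ddit3 rose with day-7 TAC (log2 fold change 0.53, SE 0.12, adjusted p = 0.00949) and differed by 0.07 with day-1 TAC (adjusted p = 0.70). Xbp1 was 5.89, 6.19 and 5.98 in sham, 5.79, 5.90 and 5.66 with day-7 TAC, then 6.22, 6.08 and 6.11 after day-1 TAC, and its differences from sham, -0.24 and 0.12, did not pass the test. Atf5 differed from sham by 0.09 with day-1 TAC and -0.06 with day-7 TAC, and the ATF4 partner Cebpg by 0.00 and -0.08, without a call. Cebpb, an acute-phase and ATF4 partner factor, ranged widely within sham (4.23, 3.01 and 3.48), and its -0.61 with day-7 TAC (SE 0.30) had an adjusted p of 0.147. Atf5 shares its locus with Nup62 and Il4i1, Cebpb with Tmem189 and Ddit3 with Mars, and the strand setting of the counting is not given in the sources used here, so their reads are uncertain.

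No target or feedback gene rose against sham, and Vldlr and Chac1 fell. Vldlr, on chromosome 19 from 27216484 to 27254231, was 9.54, 9.55 and 9.26 in sham, 9.10, 9.14 and 9.28 with day-7 TAC, then 8.70, 8.87 and 8.74 after day-1 TAC. Every day-1 TAC library was below all others, while day-7 TAC overlapped sham at 1 library of each. Vldlr fell with day-1 TAC by 0.68 (SE 0.09, adjusted p = 0.000677), and did so in every other fit. With day-7 TAC it fell by 0.28 (SE 0.09, adjusted p = 0.0497), a call lost in 8 of 11 other settings and without any 1 library other than sham replicate 3 or day-1 TAC replicate 1 (adjusted p up to 0.159). Chac1, an enzyme that breaks down glutathione and is a typical ATF4 and CHOP target, was 1.61, 0.49 and 0.38 in sham, -0.88, 0.13 and -0.70 with day-7 TAC, then 0.74, 1.30 and 0.64 after day-1 TAC. The day-7 TAC libraries were the lowest, at 13 to 21 reads each, against 25 to 61 in the others. Chac1 fell with day-7 TAC by 1.31 (SE 0.39, adjusted p = 0.0304). The call was lost without replicate 1 of sham or without replicate 1 or 3 of day-7 TAC (adjusted p up to 0.104).

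Ddit4 (REDD1), which restrains mTORC1, was 5.64 in sham replicate 1, against 4.42 and 3.83 in the other sham libraries and 3.62 to 3.90 in all 6 TAC libraries. Its differences from sham, -0.93 (SE 0.34, adjusted p = 0.0655) and -0.78 (SE 0.34, adjusted p = 0.10) for day-7 and day-1 TAC, did not pass the test. Sham replicate 1 was also the highest sham library for Atf4, Atf6, Cebpb, Cebpg, Chac1, Ddit3, Ern1, Herpud1, Ppp1r15a, Shmt2, Slc3a2 and Slc7a5. It was the highest sham library for 36.6% of all genes tested. Its erythroid marker sum was 1010.4 against 330.4 and 276 in the other sham libraries. The part of that library in these values was not tested. The pseudokinase Trib3 and the leucine sensor Sesn2 differed from sham by between -0.06 and 0.21 in the TAC groups, without a call.

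Amino acid and one-carbon genes held the largest rise of all members. Mthfd2, the mitochondrial folate enzyme, lies on chromosome 6 from 83305691 to 83325908. It was 0.85, 1.05 and 0.98 in sham, 1.30, 1.95 and 1.69 with day-7 TAC, then 3.26, 2.11 and 3.04 after day-1 TAC. The 3 groups did not overlap, and day-1 TAC replicate 2 was closest to day-7 TAC. Mthfd2 was 3.59-fold higher with day-1 TAC than in sham (log2 fold change 1.85, SE 0.28, adjusted p = 0.00111), from 36 to 53 reads to 88 to 201. With day-7 TAC it stood at 0.69 (SE 0.28, adjusted p = 0.0952).

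Asns, asparagine synthetase, was 1.20, 0.85 and 1.23 in sham, 1.65, 1.84 and 1.67 with day-7 TAC, then 2.18, 1.65 and 2.33 after day-1 TAC. All TAC libraries lay above all sham libraries. Asns rose with day-1 TAC (log2 difference 0.96, SE 0.21, adjusted p = 0.00613), also in every other fit, and with day-7 TAC (0.63, SE 0.21, adjusted p = 0.0457), where the call was lost in 2 of 11 other settings and without any 1 of the sham or day-7 TAC libraries (adjusted p up to 0.15). The serine pathway genes were not called: Psat1 differed by -0.08 with day-1 TAC and -0.18 with day-7 TAC, and Shmt2 by -0.01 and -0.23. Phgdh, not tested, had 6 to 26 reads per library.

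The transporter Slc7a5 (LAT1), which carries leucine and other large neutral amino acids, rose in both TAC groups. It lies on chromosome 8 from 121881150 to 121907694, and was 2.17, 2.14 and 2.16 in sham, 3.65, 3.56 and 3.30 with day-7 TAC, then 3.32, 2.98 and 3.46 after day-1 TAC. The sham libraries were nearly identical, and every TAC library was well above them. Slc7a5 rose 2.54-fold with day-7 TAC (log2 fold change 1.35, SE 0.15, adjusted p = 0.000274) and 2.14-fold with day-1 TAC (1.09, SE 0.15, adjusted p = 0.000622), and both calls held in every other fit. Its heavy-chain partner Slc3a2 was 5.45, 5.09 and 5.11 in sham, 6.04, 6.01 and 5.78 with day-7 TAC, then 5.50, 5.31 and 5.56 after day-1 TAC. All day-7 TAC libraries of Slc3a2 lay above sham, while day-1 TAC overlapped sham, with replicates 1 and 3 above its range and replicate 2 within it. Slc3a2 rose with day-7 TAC (log2 fold change 0.73, SE 0.12, adjusted p = 0.00168) and stood at 0.24 with day-1 TAC (SE 0.12, adjusted p = 0.136).

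Of 8 ER folding genes, 7 had a positive log2 fold change with day-1 TAC, the median was 0.32, and 2 passed the test. These 2 are 25% of the group, beside 14.3% of all genes called higher. With day-7 TAC 1 of 8 was positive, the median was -0.13 and limma called none (also none at an unadjusted p under 0.05). Pdia3, a disulfide isomerase that works with calreticulin, was 8.23, 8.47 and 8.51 in sham, 8.45, 8.56 and 8.38 with day-7 TAC, then 8.99, 8.75 and 8.65 after day-1 TAC. Every day-1 TAC library was above the rest. Pdia3 rose with day-1 TAC by 0.39 (SE 0.10, adjusted p = 0.0155), a call lost without sham replicate 1 (adjusted p = 0.0518). Pdia3 shares its locus with Catsper2.

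The isomerase Pdia4 was 5.64, 5.99 and 5.93 in sham, 5.75, 5.98 and 5.56 with day-7 TAC, then 6.53, 6.19 and 6.11 after day-1 TAC, again without overlap. It rose by 0.42 (SE 0.14, adjusted p = 0.0413), a call lost without the intensity trend and without any 1 of the sham libraries, day-7 TAC replicate 1 or day-1 TAC replicate 1 or 2 (adjusted p up to 0.138). Sdf2l1, a cofactor of ER chaperones, was 0.81, 1.45 and 1.71 in sham, 0.42, 1.49 and 0.46 with day-7 TAC, then 2.65, 2.21 and 1.92 after day-1 TAC. Its day-1 TAC libraries were the highest, and its 0.94 above sham (SE 0.34) had an adjusted p of 0.0538. Sdf2l1 had only 29 to 132 reads per library. The others did not pass the test: with day-1 TAC, Manf differed by 0.35, Calr by 0.28, Pdia6 by 0.27, Creld2 by 0.07 and Canx by -0.21. Without sham replicate 1, none of the 8 was called with day-1 TAC and their median was 0.15.

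These 8 genes also moved together from library to library within a group. Day-1 TAC replicate 1 was the highest and replicate 3 the lowest of its group for 8 of 8. Of all genes tested, 39.3% had replicate 1 as the highest, and 37.7% had replicate 3 as the lowest. Day-1 TAC replicate 3 is also the library with the female pattern of Xist and Ddx3y reads, and the part of sex in this order was not tested. Day-7 TAC replicate 2 was the highest of its group for 8 of 8 (36.2% of all genes), and sham replicate 1 the lowest for 7 of 8 (37.4%). The mean deviation of the 8 genes from the sham mean was 0.51, 0.30 and 0.13 in day-1 TAC replicates 1 to 3, -0.26, 0.10 and -0.31 with day-7 TAC, and -0.26, 0.15 and 0.11 in sham. The fibroblast marker sum was 5778, 5355 and 4590.3 in these day-1 TAC libraries. It was 4539, 4075 and 4420.1 with day-7 TAC, and 3766, 3327 and 4583 in sham. An order of 3 libraries per group cannot tell whether the fibroblast sum and the ER folding mean go together. Fibroblast markers were higher in 3 and lower in 1 of 8 with day-1 TAC, and their part in the ER folding values was not tested.

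Of the ER-associated degradation genes, Herpud1 fell in both TAC groups. Herpud1 encodes an ER membrane protein that helps assemble the complex exporting misfolded proteins, and lies on chromosome 8 from 94386438 to 94395377. It was 7.04, 6.27 and 6.55 in sham, 5.75, 5.80 and 5.99 with day-7 TAC, then 5.60, 5.91 and 5.73 after day-1 TAC. All TAC libraries were below all sham libraries, and sham replicate 1 was the highest. Herpud1 was 1.84-fold lower with day-1 TAC (log2 difference -0.88, SE 0.17, adjusted p = 0.00303) and 1.71-fold lower with day-7 TAC (-0.78, SE 0.17, adjusted p = 0.00684), and both calls held in every other fit. The mannosidase-like Edem1, the adaptor Sel1l and the ubiquitin ligase Syvn1 (HRD1) differed from sham by between -0.17 and -0.02 on the log2 scale in the TAC groups, without a call. Syvn1 shares its locus with Mrpl49.

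**Figure D4:**
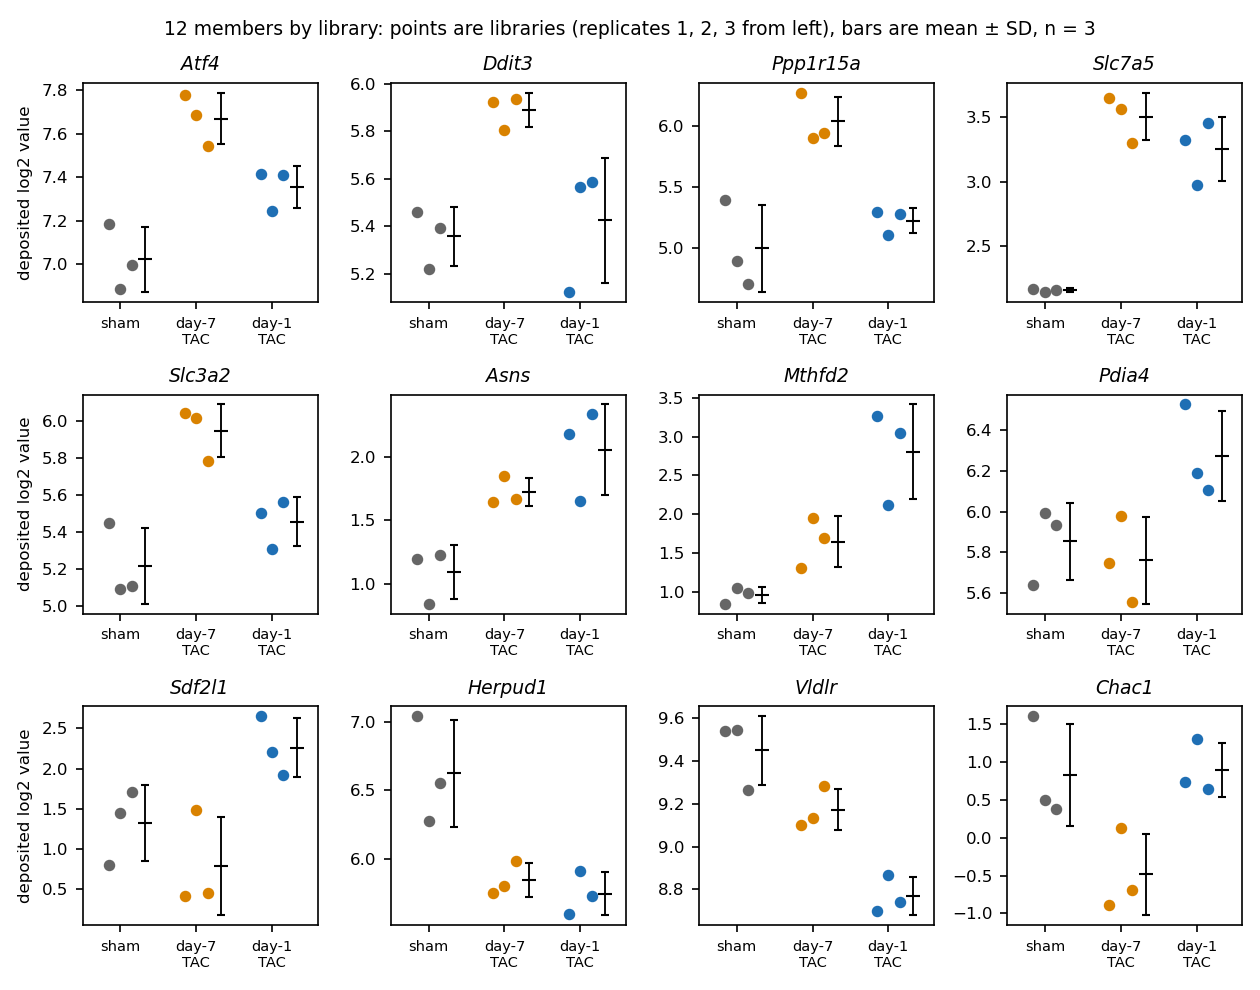
Deposited log2 value (y axis, a separate scale in each panel that does not start at 0) of 12 members in sham (grey), day-7 TAC (orange) and day-1 TAC (blue); points are libraries, replicates 1 to 3 from the left, and bars the mean ± SD of 3. The 3 groups separate for Atf4 and Mthfd2, day-7 TAC stands apart for Ddit3, Ppp1r15a and Slc3a2, and day-1 TAC for Pdia4, Sdf2l1 and Vldlr.

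Compared directly, the TAC groups differed in 11 members. With day-1 TAC 5 were higher than with day-7 TAC (13.5%, beside 6.42% of all genes tested) and 6 were lower (16.2%, beside 10.3%). Higher were Sdf2l1 by 1.47 (SE 0.34, adjusted p = 0.017), Chac1 by 1.37 (SE 0.39, adjusted p = 0.0385), Mthfd2 by 1.16 (SE 0.28, adjusted p = 0.0214), Pdia4 by 0.51 (SE 0.14, adjusted p = 0.0335) and Xbp1 by 0.35 (SE 0.09, adjusted p = 0.0294). Lower were Ppp1r15a (-0.81, SE 0.16, adjusted p = 0.00947), Slc3a2 (-0.49, SE 0.12, adjusted p = 0.0193), Ddit3 (-0.46, SE 0.12, adjusted p = 0.0285), Vldlr (-0.40, SE 0.09, adjusted p = 0.0176), Eif2ak4 (-0.32, SE 0.09, adjusted p = 0.0348) and Atf4 (-0.31, SE 0.09, adjusted p = 0.044). The folding genes Sdf2l1 and Pdia4 and the factor Xbp1 were thus higher with day-1 TAC. Genes of the ATF4 branch went both ways, with Ppp1r15a, Ddit3, Slc3a2 and Atf4 itself higher with day-7 TAC and Chac1 and Mthfd2 higher with day-1 TAC.

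Of the 8 ER folding genes, 7 had a positive difference of day-1 from day-7 TAC (median 0.40; the median of all 37 members was 0.11 and of all genes -0.03), and 8 of 8 under 4 other scalings, in which Canx turned from -0.02 to above 0. Of the 8, Sdf2l1 and Pdia4 were called (25%, beside 6.42% of all genes called higher). Scaling by total reads called 3 of the 8. Scaling by upper quartile, median of ratios or trimmed mean of recovered reads called 4. Of all members, 7 were higher and 4 lower when scaled by total reads, and 8 and 3 by upper quartile. By median of ratios and by trimmed mean, 8 were higher and 4 lower. Slc7a5, Asns and Herpud1, called against sham in both groups, did not pass the test between them, at -0.25 (SE 0.15, adjusted p = 0.269), 0.33 (SE 0.21, adjusted p = 0.297) and -0.10 (SE 0.17, adjusted p = 0.716). Leaving out a single TAC library lowered the number of calls from 11 (38.5% of all called genes higher, 56.8% when scaled by upper quartile) to 3 (without day-7 TAC replicate 1 or 3), 4 (day-1 TAC replicate 1), 6 (day-1 TAC replicate 2) or 7 (day-7 TAC replicate 2 or day-1 TAC replicate 3), and without sham replicate 1 it was 15. Ppp1r15a was called in every other fit without a replicate block. Each of the other 10 lost its call in some fit that left out a library, with the highest adjusted p between 0.063 (Sdf2l1) and 0.142 (Atf4). Atf4 also lost it in 5 and Eif2ak4 in 6 of 11 other settings, both under all 4 other scalings. Neutrophil markers were lower in 2 of 7 and macrophage markers higher in 6 of 8 in day-1 than in day-7 TAC, and their part in these differences was not tested.

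**Figure D5:**
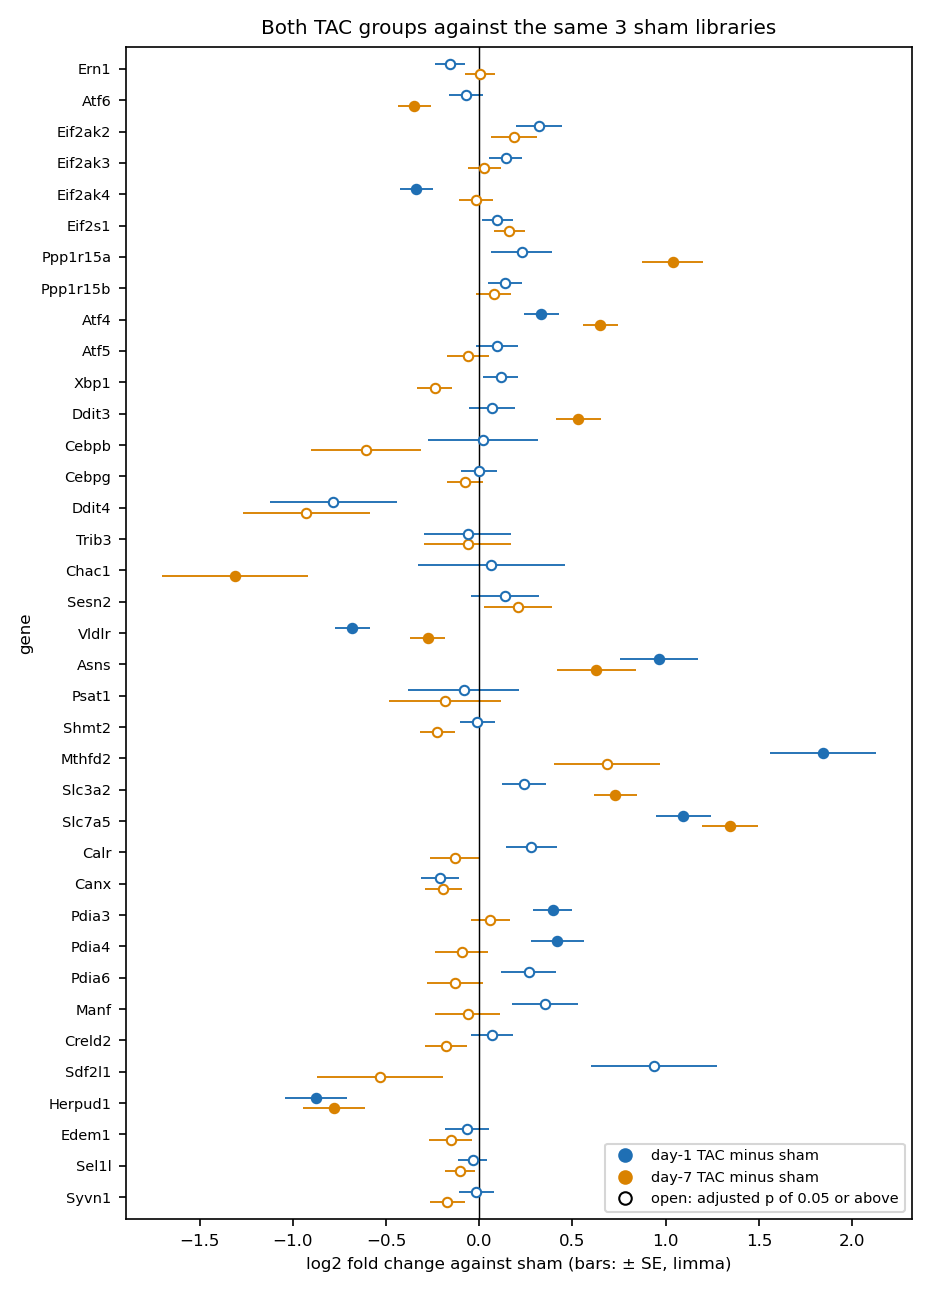
Log2 fold change (x axis, ± SE by limma) of the 37 tested members for day-1 TAC (blue) and day-7 TAC (orange), both against the same 3 sham libraries; filled points have an adjusted p under 0.05. Slc7a5 and Mthfd2 lie farthest to the right, Herpud1 lies left in both, and the ER folding genes from Calr to Sdf2l1 lie right of 0 with day-1 TAC except Canx.

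Other genes of these pathways were read from 6 lists. Beside their shares, 14.3% of all genes tested were higher and 20.5% lower with day-1 TAC, and 13.8% and 15.1% with day-7 TAC. Between the TAC groups, 6.42% of all genes were higher and 10.3% lower in day-1 TAC. Of 18 other ER chaperones and folding enzymes, 4 rose and 1 fell with day-1 TAC (22.2% and 5.56%). With day-7 TAC 2 rose and 2 fell (11.1% and 11.1%). With day-1 TAC the collagen-folding isomerase Ppib rose by 0.40, Txndc5 by 0.60 and Pdia5 by 0.49, while the cochaperone Dnajb9 fell by 0.26. Ppib (0.25), Txndc5 (0.36) and Pdia5 (0.30) were also above sham in day-7 TAC, without a call. With day-7 TAC the ER oxidase Ero1l rose by 0.41 and Txndc11 by 0.46, and Dnajb9 fell by 0.36 and Ero1lb by 0.75. Between the TAC groups 1 was higher with day-1 TAC (Fkbp2, 0.31) and 2 lower (Ero1l, -0.48, and Txndc11, -0.58), while Hyou1 stood at 0.44 without a call. These shares were 5.56% and 11.1%. The master ER chaperone Hspa5 (BiP) was not called, at 0.11 with day-1 TAC (adjusted p = 0.621) and -0.04 with day-7 TAC (adjusted p = 0.88).

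Of the 18 tested ER degradation and signalling genes outside the members, 4 rose and 3 fell in each TAC group against sham (22.2% and 16.7%). Between the TAC groups, 2 were higher in day-1 than in day-7 TAC (11.1%). Wfs1, the ER protein wolframin, was 5.28, 5.33 and 5.50 in sham, 5.55, 5.64 and 5.70 with day-7 TAC, then 6.32, 6.21 and 6.21 after day-1 TAC. The 3 groups did not overlap for Wfs1. It rose by 0.87 with day-1 TAC (SE 0.08, adjusted p = 0.000104) and by 0.26 with day-7 TAC, and was 0.62 higher in day-1 than in day-7 TAC (adjusted p = 0.00161). The ER-anchored factors Creb3 (0.54 in both) and Creb3l1 (0.49 in both) rose in each TAC group, and Crebrf, a negative regulator of CREB3, fell by 1.28 with day-1 TAC and by 1.10 with day-7 TAC. Tmbim6 fell by 0.18 with day-1 TAC and by 0.26 with day-7 TAC. Atf6b, the paralogue of Atf6, was 0.52 higher in day-1 than in day-7 TAC, and Derl2 (0.24) and Edem2 (-0.51) were not called.

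Of 17 tested translocon and signal peptide genes, 4 rose and 2 fell with day-1 TAC (23.5% and 11.8%) and 4 rose with day-7 TAC (23.5%). The channel subunit Sec61a1 rose by 0.36 in both. Ssr2 (0.56) and Tram1 (0.42) rose and Sec63 fell by 0.27 with day-1 TAC, and Ssr4 (0.36), Srp72 (0.21) and Sec61b (0.75) rose with day-7 TAC. In the group without a call, Ssr2 stood at 0.33, Tram1 at 0.33, Sec61b at 0.68 and Ssr4 at 0.16. Srp72, at -0.24, was the one call between the TAC groups (5.88%).

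The 21 tested genes of the wider ATF4 and amino acid response split in both directions. With day-1 TAC 6 rose and 6 fell (28.6% and 28.6%), and with day-7 TAC 7 rose and 5 fell (33.3% and 23.8%). In day-1 TAC 3 were higher and 5 lower than in day-7 TAC (14.3% and 23.8%). The largest rise of the list in both TAC groups was that of Gdf15. It rose by 3.55 with day-1 TAC (SE 0.55, adjusted p = 0.00114) and by 3.13 with day-7 TAC (SE 0.55, adjusted p = 0.00261). The proline synthesis genes Pycr1 and Aldh18a1 rose by 1.87 and 1.14 with day-1 TAC, and both were higher in day-1 than in day-7 TAC (0.95 and 0.76). Pycr1 also rose with day-7 TAC (0.92). The neutral amino acid carrier Slc1a4 was 1.48, 2.14 and 2.62 in sham, 4.02, 3.89 and 3.78 with day-7 TAC, then 4.03, 3.99 and 3.87 after day-1 TAC. Its TAC libraries were all above sham, and it rose by 1.82 and 1.88. The stress factor Atf3 rose 6.36-fold with day-7 TAC (2.67, SE 0.28, adjusted p = 0.000208), stood at 0.60 with day-1 TAC (adjusted p = 0.114), and was lower in day-1 than in day-7 TAC (-2.07, adjusted p = 0.00196). The cytosolic folate enzyme Shmt1 rose with day-7 TAC (1.19) and was lower in day-1 than in day-7 TAC (-1.53).

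In the same list the mitochondrial folate enzyme Aldh1l2, often named as an ATF4 target, fell by 1.19 with day-1 TAC and by 1.29 with day-7 TAC, and the secreted glycoprotein Stc2 fell by 1.47 with day-1 TAC and by 1.23 with day-7 TAC. Gpt2 fell by 0.81 with day-7 TAC and was 0.75 higher in day-1 than in day-7 TAC. The list thus held calls in both directions in each comparison.

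Cytosolic aminoacyl-tRNA synthetases rose in 6 and fell in 2 of 20 with day-1 TAC (30% and 10%). With day-7 TAC they rose in 7 and fell in 1 (35% and 5%). Called in both TAC groups were Aars (0.49 with day-1 TAC and 0.31 with day-7 TAC), Gars (0.36 and 0.39), Rars (0.33 and 0.25), Vars (0.37 and 0.35) and Yars (0.26 and 0.32), all higher, and Qars (-0.26 and -0.29), lower. Kars fell by 0.26 with day-1 TAC and stood at -0.03 with day-7 TAC, and its -0.23 was the one call between the TAC groups (5%). Of 12 tested genes of the mitochondrial unfolded protein response, 2 rose and 3 fell with day-1 TAC (16.7% and 25%). With day-7 TAC 2 fell (16.7%). The protease subunit Clpx fell by 0.61 and 0.65 in day-1 and day-7 TAC. With day-1 TAC Dnaja3 rose by 0.33, Hspe1 by 0.88, and Trap1 fell by 0.30, and Pitrm1 fell by 0.23 with day-1 TAC and by 0.26 with day-7 TAC. limma called none of the 12 between the TAC groups (1 at an unadjusted p under 0.05).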

How the data were processed

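Left-ventricle messenger RNA of 9 libraries (3 sham, 3 day-7 TAC, 3 day-1 TAC) was sequenced for 50 cycles, single-end, per the labels' protocols. The column headers name the deposited values log2 TMM. The submitters' processing notes name Trim Galore, STAR, edgeR and mm10, without tool versions. Library medians lay within 0.0028 of each other. Scaling by a trimmed mean of the recovered reads moved the median of all genes by 0.042 for day-1 TAC against sham. It took the share of higher among all called genes there from 41.1% to 49.4%. How the deposited values were scaled cannot be told from the header name. Each library's lowest value was taken as 1 read, and every value was then a whole number of reads (tolerance 0.001), from 18538900 to 26529531 in all. Whether the authors added a pseudocount cannot be told from the values.

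Of 16710 genes listed, 12 with 3 repeated symbols were left out, 0 columns were unused, and 13712 genes above 0 in at least 3 libraries were tested. A linear model with an intensity trend (limma 3.58.1, R 4.3.3, 6 residual degrees of freedom, two-sided, Benjamini-Hochberg over all genes tested, call at an adjusted p under 0.05) was fitted to all 9 libraries, and tested on simulated data. Nothing in the labels ties the libraries to separate animals, and p-values then reflect only how far these libraries differ, which may be technical. Day-1 TAC replicate 3 differed from all other libraries in its reads of Xist (10532) and Ddx3y (18). Between libraries of a group the chi-square of read counts averaged 8.70 to 25.6 per gene. Whether each library is a separate animal was not tested. A pair of sham columns carries the same name, so sham replicates 2 and 3 are numbered by column only. Alternatives covered the filter, scaling, pseudocount, spread model, voom on recovered reads, the libraries fitted and each library left out. Exon lengths and positions are from GENCODE M 21 (GRCm38); motifs were searched by Python 3.11.15. Proteins were not analysed here.

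All 40 members are named by role, those with a call with all 9 values, and of each pathway list up to 4 genes with the smallest p per comparison. Hspa5 and Gdf15 were named outside that rule after their values were seen. The members and lists were chosen with earlier results of these data known.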

Additional observations from a re-analysis of the deposited data

Results flagged for a closer look

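For 11 members the responses to day-1 and day-7 TAC differed by limma's test of the difference itself, given here as day-1 TAC minus day-7 TAC on the log2 scale. The differences were positive for Sdf2l1 (1.47), Chac1 (1.37), Mthfd2 (1.16), Pdia4 (0.51) and Xbp1 (0.35). They were negative for Ppp1r15a (-0.81), Slc3a2 (-0.49), Ddit3 (-0.46), Vldlr (-0.40), Eif2ak4 (-0.32) and Atf4 (-0.31). With the same sham libraries on both sides, each equals the direct difference between the TAC groups, which differ in age at surgery and in time under load together.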

How the results depend on the processing

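Of 111 member differences tested, 30 were called, and 12 of these were called in every alternative run except the replicate block. None of the 30 changed sign, while 26 uncalled differences did in some setting (largest size 0.264, lowest adjusted p there 0.433). The median log2 fold change of the members with day-1 TAC went from 0.09 to 0.19 when scaled by total reads and 0.18 by upper quartile, and lay between 0.07 and 0.13 with a library left out; with day-7 TAC the latter range was -0.16 to -0.026, and between the TAC groups 0.05 to 0.16. With a library left out, 6 to 10 members were called with day-1 TAC, 6 to 10 with day-7 TAC and 3 to 15 between the TAC groups, where 6 were called without the intensity trend. With the replicate number as a block, 5 were called between the TAC groups (3 higher, 2 lower). Deviations from the group mean in same-numbered libraries had correlations of -0.224, -0.110 and -0.0365 across genes. Such deviations cancel within each group, so these values cannot tell whether the numbers pair the libraries. No paired analysis was possible against sham because a pair of sham columns carries the same number. Few reads limit Chac1 (13 to 61), Phgdh (6 to 26) and Slc7a11 (7 to 23). Counts were also low for Sdf2l1 (29 to 132), Mthfd2 (36 to 201), Trib3 (39 to 78), Asns (45 to 97) and Sesn2 (51 to 88).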
